A study of Homo sapiens with 17 samples.

Results

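Cytosolic ribosomal protein genes encode the proteins of the large (60S) and small (40S) ribosomal subunits. They were chosen by gene symbol, as RPL or RPS followed by a number with its usual suffixes, together with RPSA, RPLP0, RPLP1 and RPLP2. The S6 kinases and the pseudogenes were left out. This gave 86 of the 34496 genes in the count table, of which 52 belong to the large and 34 to the small subunit. For 82 of them the read counts were high enough to be tested. The other 4 were RPL3L, RPL10L, RPS4Y1 and RPS4Y2.

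RNA was sequenced after removal of ribosomal RNA in 10 libraries, each from a cultured line of a human head and neck cancer. Most derive from Cal27, a squamous carcinoma line of the tongue. The replicated groups held 2 libraries each of Cal27 labelled as an NSD1 knockout and treated with EPZ-6438, the same labelled knockout treated with DMSO, and unmodified Cal27 treated with DMSO. The untreated groups held 1 library each of the labelled knockout of Cal27, SKN3, BICR78 and Cal27. NSD1 is a methyltransferase for lysine 36 of histone H3. EPZ-6438 (tazemetostat) inhibits EZH2, which methylates lysine 27 of the same histone. The dose, the duration of treatment, and whether the labelled knockout is 1 clone or a pool are not stated in the labels. No label says that replicates were separate cultures, and p-values therefore reflect the spread between these libraries alone, part of which may be technical.

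Values are CPM, the counts per 1e6 reads, after TMM scaling, which corrects for the make-up of each library. Total counts in units of 1e6 were 11.75 to 15.51 with DMSO or EPZ-6438 and 17.59 to 21.74 without treatment. NSD1 itself was not lower in the libraries labelled as its knockout. It had 165 and 163 CPM in the labelled knockout with DMSO against 113 and 114 CPM in Cal27 with DMSO. Without treatment it had 205 CPM in the labelled knockout, 80.2 CPM in SKN3 and 0.464 CPM in BICR78, against 150.3 CPM in Cal27. A count over the whole gene does not show a small edit, so every direction below is that of libraries labelled as a knockout. All 10 epithelial and squamous markers examined (KRT5, KRT14, KRT6A, KRT17, TP63, CDH1, EPCAM, KRT8, KRT18 and DSP) were detected in all 10 libraries. The immune markers PTPRC, CD3E and LYZ stayed at or below 1.57 CPM in all of them, while CD68, a macrophage marker that other cells can also express, lay between 7.63 and 127 CPM. Of the endothelial and fibroblast markers PECAM1 and DCN stayed at or below 2.56 CPM. VWF and COL3A1 reached 23.3 and 26.1 CPM in SKN3, COL1A1 42.1 CPM in BICR78 and COL1A2 7.61 CPM in the labelled knockout with EPZ-6438.

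The ribosome is assembled in the nucleolus from ribosomal RNA and many different proteins, needed in equal amounts, and its protein genes are therefore among the most active genes of growing cells. Most of their mRNAs begin with a run of pyrimidines at the 5′ end, the terminal oligopyrimidine or TOP motif, through which mTORC1 and the RNA-binding protein LARP1 control how strongly they are translated. Transcription of the genes responds to MYC. Several ribosomal proteins have functions off the ribosome, and inherited loss of a single copy of some of them causes Diamond-Blackfan anaemia.

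Most of the start sites examined carry a pyrimidine run. RefSeq (GRCh38.p14, the same assembly as the hg38 of the deposited data) gave the starts of the 69 genes of the family examined here. The windows below hold 15 bases before and 15 from the start, written 5′ to 3′ along the gene. Capitals mark a run of at least 6 pyrimidines (C or T) that touches the 5 bases on either side of the start. RPSA, RPL39, RPL12 and RPL22L1 are shown because their mRNAs fell most in the labelled knockout with DMSO among those with a listed start, RPL37A and RPS16 because they stood apart in the untreated lines, and RPL7L1 and RPS27L because they lack the run.
RPSA: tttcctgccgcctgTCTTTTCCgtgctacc
RPL39: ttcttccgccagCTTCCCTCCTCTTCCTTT
RPL12: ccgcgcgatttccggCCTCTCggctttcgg
RPL22L1: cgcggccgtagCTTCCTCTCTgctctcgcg
RPL37A: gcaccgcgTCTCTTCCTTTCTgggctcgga
RPS16: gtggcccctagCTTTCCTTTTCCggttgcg
RPL7L1: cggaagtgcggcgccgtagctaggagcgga
RPS27L: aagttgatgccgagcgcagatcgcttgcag

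These windows lie at chr3:39406705-39406734 on the plus strand for RPSA, chrX:119791616-119791645 on the minus strand for RPL39, chr9:127451392-127451421 on the minus strand for RPL12 and chr3:170870181-170870210 on the minus strand for RPL22L1. They lie at chr2:216498829-216498858 on the plus strand for RPL37A, chr19:39435935-39435964 on the minus strand for RPS16, chr6:42879601-42879630 on the plus strand for RPL7L1 and chr15:63157463-63157492 on the minus strand for RPS27L. Each spans the end of the promoter and the first bases of the first exon. Only the first listed start of each gene was examined. The pyrimidine run was found there in 50 of the 69 genes (72.5%), against 5972 of 27305 genes in the RefSeq table (21.9%). Some genes without it there have further listed starts, as RPL10, RPL13 and RPL15 with 3 each. A gene counted as without the run may thus carry it at a start that was not examined. In the 250 bases before the start, searched on both strands, CGGAAG, a core bound by ETS family factors, was present in 58% of the ribosomal protein genes and 16.8% of all genes. The E-box CACGTG, which MYC binds, was present in 5.8% and 6.49%, and TATAA in 18.8% and 19.6%. Such a match is a string of letters and not a shown binding site.

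The first comparison asked how the genes differ between the labelled NSD1 knockout and its parental line, both with DMSO. Of 82 tested ribosomal protein genes 68 fell (82.9%), 1 rose (RPL7L1) and 13 did not pass the test, at an adjusted p below 0.05 in edgeR's quasi-likelihood test with Benjamini-Hochberg adjustment over 13241 genes. Over all tested genes 19.5% fell and 16.4% rose. The falls were mostly small, and 18 of the 82 (22%) fell by more than 0.2 on the log2 scale in edgeR's glmTreat test, beside 10% of all tested genes. The median log2 change of the 82 genes was −0.18, with quartiles of −0.24 and −0.12 and a range of −0.80 to 0.11, beside a median of −0.0061 over all tested genes. In 71 of the 82 (86.6%) both labelled knockout libraries lay below both Cal27 libraries, which held for 35.4% of all tested genes. Counted together, the 86 genes took 5.83% and 5.89% of all reads in the labelled knockout with DMSO against 6.40% and 6.41% in Cal27 with DMSO. The groups did not overlap, but an exact permutation test of 2 against 2 libraries cannot give a two-sided p below 0.333. These are bulk cultures, so less of an mRNA per cell and fewer cells with it cannot be told apart.

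**Figure D1:**
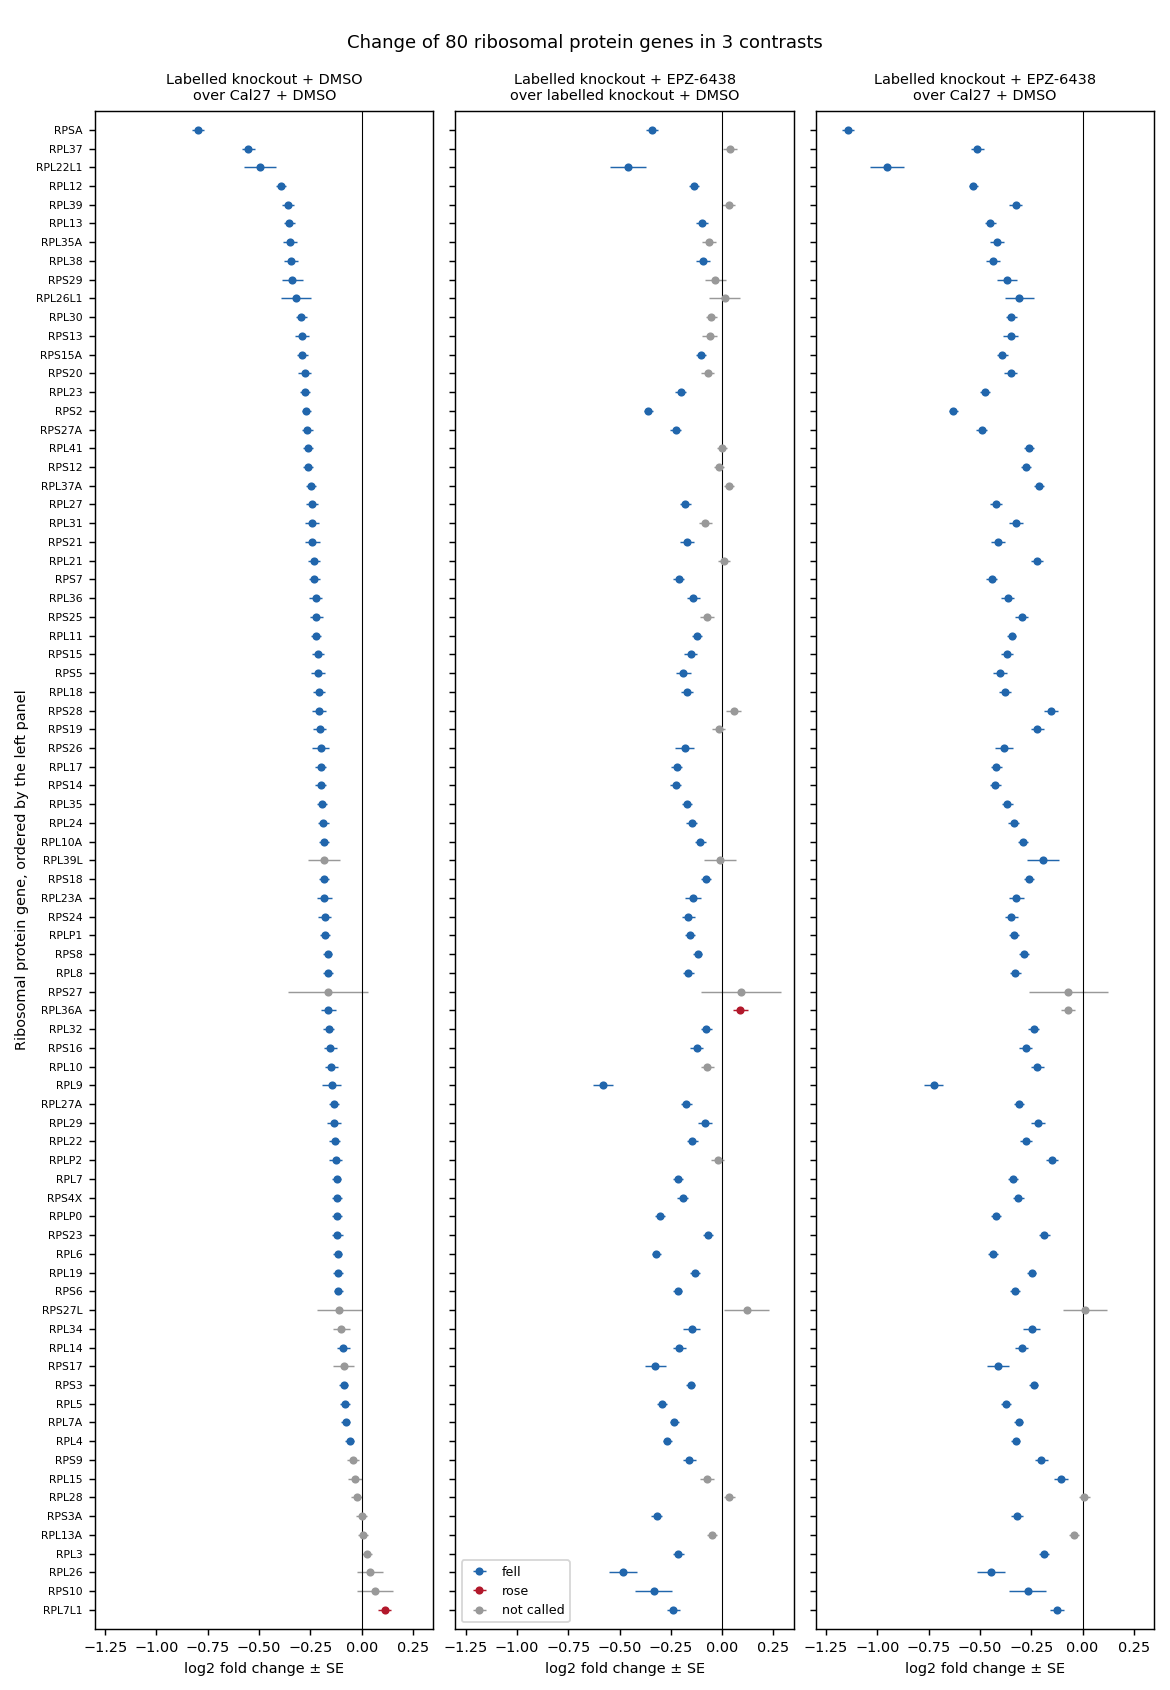
Log2 fold change (x axis) of 80 of the 82 tested ribosomal protein genes (down the page, ordered by the left panel) in the labelled knockout with DMSO over Cal27 with DMSO (left), the labelled knockout with EPZ-6438 over the labelled knockout with DMSO (middle) and the labelled knockout with EPZ-6438 over Cal27 with DMSO (right). Points are edgeR estimates and bars are standard errors; of the genes plotted 66, 55 and 75 fell, and 1, 1 and 0 rose.

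RPSA fell most. It encodes a small-subunit protein at the mRNA exit side that also serves as the laminin receptor at the cell surface. RPSA (chr3:39406720-39412542) had 404 and 405 CPM in the labelled knockout with DMSO against 699.7 and 707 CPM in Cal27 with DMSO, which is −0.80 ± 0.03 on the log2 scale (SE; adjusted p = 1.3e-12 in edgeR). The replicates of each group nearly coincided, and the gap between groups was many times their spread. RPL37, a zinc-binding protein of the large subunit, had 708 and 727 CPM in the labelled knockout against 1042 and 1064 CPM in Cal27 (−0.55 ± 0.03). RPL39, a short protein that lines the exit tunnel, had 363 and 371 CPM in the labelled knockout against 463 and 478 CPM in Cal27 (−0.36 ± 0.03).

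The acidic stalk recruits elongation factors to the ribosome, with RPLP0 at its base, RPLP1 and RPLP2 as its arms and RPL12 beside it. All 4 fell. RPL12 had 1195 and 1231 CPM in the labelled knockout against 1592 and 1596 CPM in Cal27 (−0.39 ± 0.02). RPLP0 (−0.12 ± 0.02), RPLP1 (−0.18 ± 0.02) and RPLP2 (−0.13 ± 0.03) changed less. RPL5 and RPL11 carry 5S ribosomal RNA into the large subunit and bind MDM2 when assembly stalls. RPL11 had 983 and 1007 CPM in the labelled knockout against 1159 and 1161 CPM in Cal27 (−0.22 ± 0.02), and RPL5 had 949.9 and 949.6 CPM in the labelled knockout against 993 and 1014 CPM in Cal27 (−0.08 ± 0.02). The groups did not overlap for either gene, but the call of RPL5 in edgeR's quasi-likelihood test (adjusted p = 0.0176) was lost without the second Cal27 library or either library of the labelled knockout. The call of RPLP2 was lost without the first Cal27 library or the second of the labelled knockout.

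Around the polypeptide exit tunnel 6 of 7 genes fell, and RPL26 had a log2 change of 0.04 ± 0.06. At the mRNA entry and decoding site RPS2, RPS3, RPS15 and RPS23 fell, RPS3 not when the first library of the labelled knockout was left out. RPS2 had 2373 and 2391 CPM in the labelled knockout against 2929.9 and 2814 CPM in Cal27 (−0.27 ± 0.02). RPS6, whose protein is the classical substrate of the S6 kinases, fell slightly, with 1446 and 1444 CPM in the labelled knockout against 1540.1 and 1585 CPM in Cal27 (−0.11 ± 0.02). RPS27A, which is made as a fusion with ubiquitin, had 898 and 881 CPM in the labelled knockout against 1052 and 1086 CPM in Cal27 (−0.26 ± 0.03). Falls were thus found in each of these sites. RPL26 was not called, and its counts leave its direction uncertain. In Cal27 with DMSO it was counted at 0.0767 of its untreated level. Its log2 change ran from −0.0135 to 0.098 on leaving out 1 library. In the untreated pair it was lower in the labelled knockout, by a log2 difference of −0.15. RPL10, which completes the peptidyl transferase centre, fell by 0.15 on the log2 scale, while RPL3, beside the same centre, had 1133 and 1150.1 CPM in the labelled knockout against 1139 and 1103 CPM in Cal27 (0.03 ± 0.02) and overlapped between groups.

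Of all tested members 82.9% fell in this first comparison, beside 19.5% of all tested genes. Of 14 genes mutated in Diamond-Blackfan anaemia 10 fell (71.4%) and none rose (median −0.20). Many ribosomal protein genes also carry small nucleolar RNAs in their introns. Of 27 such host genes 25 fell (92.6%, median −0.18), and of the 55 tested members outside that list 43 fell (78.2%, median −0.18). By subunit, 42 of 50 large-subunit genes fell (84%, median −0.17), as did 26 of 32 small-subunit genes (81.2%, median −0.20). The median change was −0.18 in the 49 tested genes with a pyrimidine run at the first listed start and −0.15 in the 17 without it there. It was −0.14 with and −0.15 without the run for the inhibitor, and −0.31 with and −0.33 without for the treated labelled knockout against Cal27.

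The second comparison asked what EPZ-6438 does in the labelled knockout. With the inhibitor 55 of 82 ribosomal protein genes fell (67.1%), 2 rose, RPL36A among them, and 25 did not pass, against 23.9% and 25.6% of all tested genes that fell and rose, and 49.6% that did either. Against a fall of 0.2 on the log2 scale 11 of the 82 (13.4%) passed glmTreat, near the 10% of all tested genes. The median log2 change was −0.14, with a range of −0.58 to 0.12, beside 0.0029 over all tested genes. The 86 genes took 5.23% and 5.34% of all reads with EPZ-6438 against 5.83% and 5.89% with DMSO. Both treated libraries lay below both DMSO libraries in 61 of the 82 (74.4%), which held for 36.4% of all genes. This comparison shares the DMSO libraries of the labelled knockout with the first one.

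RPL9, a large-subunit protein near the sarcin-ricin loop, fell most with the inhibitor. It had 66.8 and 69.4 CPM with EPZ-6438 against 102 and 102 CPM with DMSO (−0.58 ± 0.05; edgeR adjusted p = 3.79e-08). In the first comparison its change was −0.15 ± 0.05, a call that DESeq2 did not make and that was lost without the first Cal27 library or either library of the labelled knockout with DMSO. RPL26, which binds near the tunnel exit, had 40.1 and 36.3 CPM with EPZ-6438 against 55.3 and 51.2 CPM with DMSO (−0.48 ± 0.07). Both genes had fewer reads than most members, and both have near-identical processed pseudogenes that can take up reads, so their levels are uncertain.

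RPS2 had 1854 and 1859 CPM with EPZ-6438 against 2373 and 2391 CPM with DMSO (−0.36 ± 0.02). RPSA had 309 and 327 CPM with EPZ-6438 against 404 and 405 CPM with DMSO (−0.34 ± 0.03). The stalk base RPLP0 had 1551 and 1614 CPM with EPZ-6438 against 1946 and 1957 CPM with DMSO (−0.30 ± 0.02). None of these groups overlapped. RPL5 had 786 and 766 CPM with EPZ-6438 against 949.9 and 949.6 CPM with DMSO (−0.29 ± 0.02), and RPL11 had 918 and 908 CPM with EPZ-6438 against 983 and 1007 CPM with DMSO (−0.12 ± 0.02). RPS6 had 1237 and 1249 CPM with EPZ-6438 against 1446 and 1444 CPM with DMSO (−0.22 ± 0.02).

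RPL37, RPL39 and RPLP2 fell in the labelled knockout and did not pass the test for the inhibitor. RPL37 had 706 and 768 CPM with EPZ-6438 against 708 and 727 CPM with DMSO (0.04 ± 0.03), and RPL39 had 369 and 381 CPM with EPZ-6438 against 363 and 371 CPM with DMSO (0.03 ± 0.03). RPLP2 had 581 and 619 CPM with EPZ-6438 against 616 and 603 CPM with DMSO (−0.02 ± 0.03). Their groups overlapped, and RPL37 passed with a log2 change of 0.10 when the first EPZ-6438 library was left out. RPL36A rose by little. It had 346 and 324 CPM with EPZ-6438 against 308 and 322 CPM with DMSO (0.09 ± 0.03, edgeR adjusted p = 0.0432). The call was lost on leaving out the first DMSO library of the labelled knockout, and by DESeq2. The call of RPL7L1 in the first comparison was likewise lost on leaving out the first Cal27 library or either library of the labelled knockout with DMSO.

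**Figure D2:**
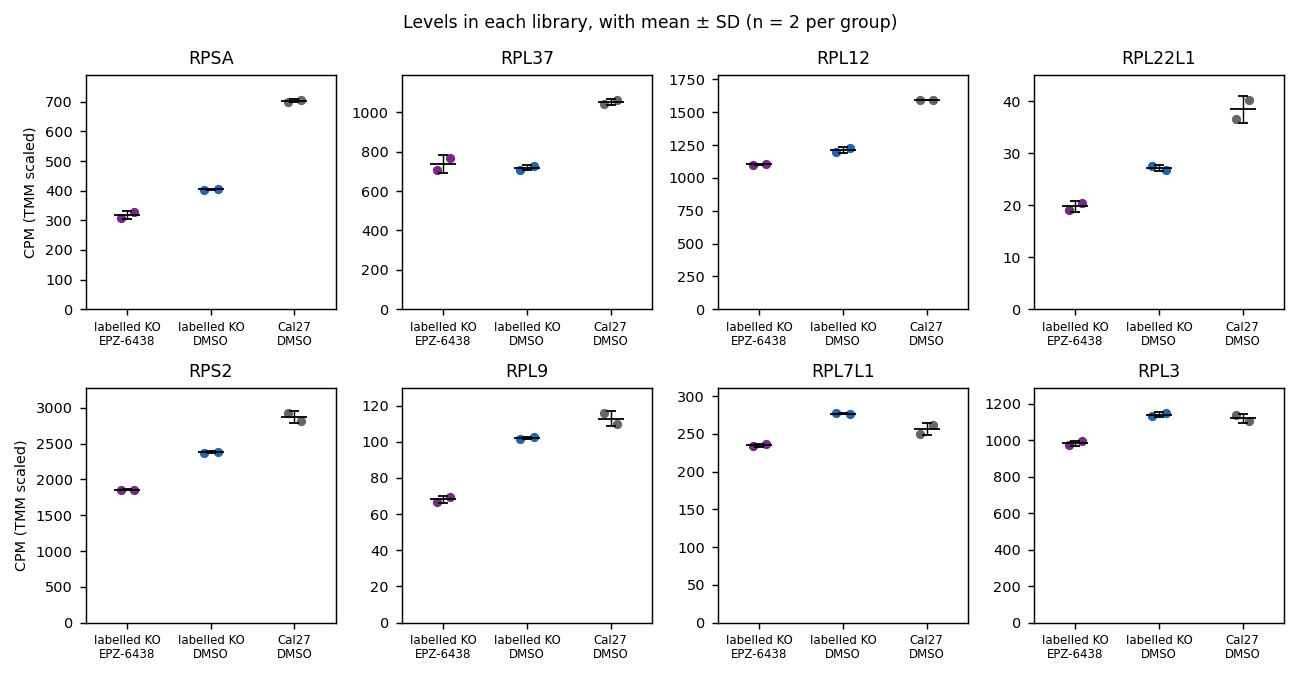
CPM (y axis, from 0) of 8 ribosomal protein genes in each library of the labelled knockout (KO) with EPZ-6438, the labelled knockout with DMSO and Cal27 with DMSO (x axis). Points are libraries, and bars give the mean and SD (n = 2 per group); RPSA is at 309 and 327 CPM with EPZ-6438 and at 699.7 and 707 CPM in Cal27, while RPL37 overlaps between both labelled knockout groups.

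In the treated labelled knockout 76 of 82 genes fell relative to parental Cal27 with DMSO (92.7%), beside 25.9% of all tested genes. This comparison shares libraries with both others, and its log2 changes are the sums of theirs. It is therefore not a further independent result. Both treated libraries lay below both Cal27 libraries in 79 of the 82 (96.3%), which held for 37.3% of all tested genes. None rose, by edgeR at an adjusted p below 0.05, at an unadjusted p below 0.05, or by DESeq2, whereas 26.1% of all tested genes rose. The median log2 change was −0.33, with a range of −1.14 to 0.01, beside 0.0039 over all tested genes. The reads taken by all 86 genes averaged 5.28% ± 0.0766 in the treated labelled knockout and 6.40% ± 0.0132 in Cal27 (SD, n = 2 each). RPSA had a log2 change of −1.14 ± 0.03, RPL22L1 of −0.95 ± 0.08, RPL9 of −0.73 ± 0.05, RPS2 of −0.63 ± 0.02 and RPL12 of −0.53 ± 0.02. Among the 6 genes that did not pass were RPL36A, RPS27, RPL13A, RPL28 and RPS27L, of which RPL36A passed without the first EPZ-6438 library. All 14 Diamond-Blackfan anaemia genes fell in this comparison.

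Vertebrate genomes hold paralogues of some ribosomal protein genes, and the products of some of these paralogues can replace the parent protein in the ribosome. Of 5 such paralogues with enough reads, RPL22L1 and RPL26L1 fell in the labelled knockout with DMSO and RPL7L1 rose. RPL22L1, which competes with RPL22 in mouse T cell development, had 19.1 and 20.5 CPM with EPZ-6438 and 27.6 and 26.9 CPM with DMSO in the labelled knockout, against 36.5 and 40.3 CPM in Cal27 with DMSO. The 3 groups were separate, with log2 changes of −0.50 ± 0.08 for the labelled knockout and −0.46 ± 0.09 for the inhibitor. RPL22 itself had 430.0 and 424 CPM with EPZ-6438 and 471 and 473 CPM with DMSO, against 522 and 511 CPM in Cal27, with log2 changes of −0.13 ± 0.03 and −0.14 ± 0.03.

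RPL7L1, related to the yeast assembly factor Rlp7, had 278 and 276 CPM in the labelled knockout with DMSO against 250.5 and 262 CPM in Cal27 (0.11 ± 0.03; edgeR adjusted p = 0.0117). With EPZ-6438 it had 234 and 236 CPM against the same 278 and 276 CPM with DMSO (−0.24 ± 0.03). RPL39L, a paralogue of RPL39 known from the male germline of mice, had 29.4 and 33.3 CPM with EPZ-6438, 32.5 and 31.0 CPM with DMSO and 35.3 and 36.8 CPM in Cal27. Its change passed the test for the treated labelled knockout against Cal27 (−0.19 ± 0.08, edgeR adjusted p = 0.0449), a call that DESeq2 did not make. RPS27L, a paralogue of RPS27, lay between 17.6 and 22.5 CPM in the 6 libraries, and its groups overlapped.

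Other genes of protein synthesis were examined from lists. Scaling by library size alone raised the median of all genes by 0.0513 in the labelled knockout with DMSO, so list medians closer to 0 than this are not read as a direction. In the labelled knockout with DMSO 1 of 12 elongation and release factors fell and 2 rose, and 11 of 35 initiation factors (31.4%) fell and 4 rose, beside the 19.5% and 16.4% of all tested genes. Of 21 other genes with a TOP motif 7 fell (33.3%) and 1 rose. EEF1A1 and EEF2, which carry the elongation step and have TOP mRNAs, had log2 changes of 0.02 and −0.02 that did not pass. With EPZ-6438 the counts were 10 of 12 elongation and release factors, 27 of 35 initiation factors and 15 of 21 other TOP genes that fell (83.3%, 77.1% and 71.4%, beside 23.9% of all tested genes), and 2 in each list that rose. EEF1A1 then fell by 0.19 and EEF2 by 0.20 on the log2 scale. The ribosomal proteins whose symbols lie outside the rule were mixed. FAU, made as a fusion of a ubiquitin-like protein with eS30, fell in the labelled knockout with DMSO (−0.28) and with EPZ-6438 (−0.23). RACK1, a scaffold on the small subunit, fell with the inhibitor (−0.27) and was at −0.05 in the labelled knockout, not called. Both comparisons share the DMSO libraries of the labelled knockout, and the difference between them was not tested.

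The list of ribosome assembly factors held 68 tested genes. In the labelled knockout with DMSO 14 fell and 4 rose (median −0.03), and the 20.6% that fell were close to the 19.5% of all tested genes. Among those called were NPM1, a nucleolar chaperone, at −0.27, NOP56, a core protein of box C/D particles, at −0.35 and RRP1 at 0.42, the last 2 being the list's lowest and highest. With EPZ-6438 59 fell (86.8%) and 1 rose (median −0.27), beside 23.9% and 25.6% of all tested genes that fell and rose. NPM1 was then at −0.39, NOLC1 at −0.42 and DDX21 at −0.40. RNA polymerase I and its factors fell in 1 (9.09%) and rose in 2 of 11 genes in the labelled knockout, and fell in 6 (54.5%) with EPZ-6438, among them POLR1E (−0.45). Of 21 regulators around MYC and mTORC1 3 fell (14.3%) and 6 rose (28.6%) in the labelled knockout with DMSO, and 9 fell (42.9%) and 2 rose (9.52%) with EPZ-6438. Over all tested genes 19.5% fell and 16.4% rose in the former, and 23.9% fell and 25.6% rose with EPZ-6438. MYC rose by a log2 change of 0.11 ± 0.04 in the labelled knockout with DMSO (edgeR adjusted p = 0.0248) and fell with EPZ-6438 (−0.26 ± 0.04). The extremes of the list with EPZ-6438 were MXI1, a MYC antagonist, which rose (1.02), and EIF4EBP1, the translation repressor downstream of mTORC1, which fell (−0.59). Mitochondrial ribosomal protein genes, which are nuclear genes of a separate ribosome, fell in 29 of 78 cases (37.2%) in the labelled knockout and in 47 (60.3%) with EPZ-6438.

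Other properties of the libraries moved with these falls. Transcripts encoded in mitochondria took 5.83% and 5.44% of reads in the labelled knockout with EPZ-6438, 6.27% and 6.08% in the labelled knockout with DMSO and 7.06% and 7.25% in Cal27 with DMSO. The 10 epithelial and squamous markers summed to 3611 and 3632 CPM with EPZ-6438 and to 4782 and 4911 CPM with DMSO in the labelled knockout, against 9488 and 9403 CPM in Cal27, and 6 of the 10 fell and 3 rose in the labelled knockout with DMSO. The 10 markers of immune, endothelial and fibroblast cells summed to 124 and 115 CPM with EPZ-6438 and to 107 and 107 CPM with DMSO in the labelled knockout, against 72.1 and 68.3 CPM in Cal27, mostly through CD68. Without CD68 they summed to 22.7 and 25.8 CPM with EPZ-6438 and to 9.79 and 6.96 CPM with DMSO in the labelled knockout, against 20.4 and 18 CPM in Cal27. CD3E was at 0 in Cal27 with DMSO. The part of these shifts in the falls of ribosomal protein genes was not tested.

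In the untreated libraries the labelled knockout was also set against Cal27, with 1 library each and so no test. Of the 82 genes 77 were lower in the labelled knockout, with a median log2 difference of −0.19 beside 0.0051 over all genes with enough reads. With scaling by library size alone that median was −0.0902. The 10 epithelial and squamous markers summed to 6277 CPM in the untreated labelled knockout against 26324 CPM in untreated Cal27. KRT5 and KRT14 alone had 2682 and 46.0 CPM in the labelled knockout against 11381 and 6827 CPM in Cal27. CDH1, EPCAM, KRT8 and KRT18 were higher in the labelled knockout, KRT8 with 962 against 330 CPM, and the other markers were lower. Mitochondrial transcripts took 5.94% of reads in the labelled knockout against 7.48% in Cal27. The part of these markers and transcripts in the difference was not tested. The reads taken by the 86 genes came to 4.86% in the untreated labelled knockout against 5.26% in untreated Cal27. A difference of at least 0.5 on the log2 scale was reached downward by 3 of the 82 genes and upward by 0, against 13.7% and 12.1% of all genes. RPL37A, a zinc-binding protein of the large subunit, had 234 CPM (exact 95% Poisson interval 227 to 240.3) in the labelled knockout against 523 CPM (513 to 533) in Cal27, a log2 difference of −1.16. RPSA had 414 CPM (406 to 423) in the labelled knockout against 639 CPM (628 to 649) in Cal27, or −0.62, and RPS28 had 209 CPM (203 to 215) in the labelled knockout against 298 CPM (291 to 305) in Cal27, or −0.51. The intervals cover counting error only and do not overlap for any of the 3. The highest were RPL39L (0.17), RPL7L1 (0.10) and RPL26L1 (0.02).

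Whether the knockout effect differed between untreated and DMSO-treated cells was tested as an interaction in edgeR, in which the untreated pair is assumed to vary like the replicated groups. The spread of the untreated libraries was not measured, so these p-values rest on that of the other set. Of 82 genes 28 passed (34.1%), beside 29.8% of all tested genes. RPL37A had the largest value, with an interaction of −0.92 ± 0.05 on the log2 scale (edgeR adjusted p = 8.21e-10). Its change with DMSO was −0.25, with 609 and 626 CPM in the labelled knockout against 727 and 739 CPM in Cal27. RPSA was lower in both settings, by a log2 difference of −0.62 untreated and −0.80 with DMSO, with an interaction of 0.17 ± 0.05 (adjusted p = 0.0163).

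The genes near RPL37A were lower in the same library. RPL37A lies at chr2:216498844-216504086, and 3 other genes with enough reads have their midpoint within 500 kb of it. In the untreated labelled knockout PECR had a log2 difference from untreated Cal27 of −1.71, XRCC5 of −1.04 and SMARCAL1 of −0.84. With DMSO none of the 3 passed the test (0.17 ± 0.17, −0.07 ± 0.03 and −0.09 ± 0.09). The 4 neighbours of RPSA, by contrast, lay between 0.07 and 1.01 above Cal27 in the untreated labelled knockout, with a median of 0.23. What sets the levels at these loci was not tested.

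**Figure D3:**
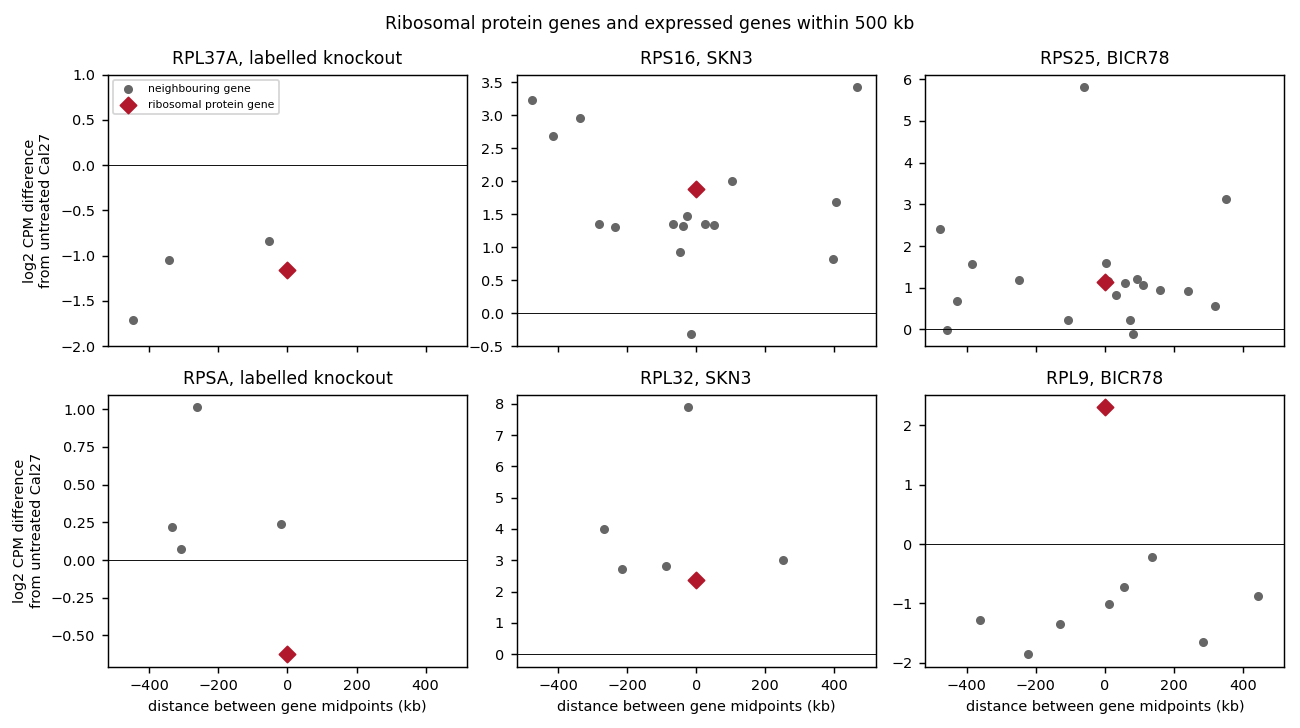
Log2 CPM difference from untreated Cal27 (y axis, scaled per panel) of 6 ribosomal protein genes (red diamonds) and of expressed genes within 500 kb (grey points, 1 neighbour of RPL32 not plotted), by distance between gene midpoints in kb (x axis), in the untreated labelled knockout (left), SKN3 (middle) and BICR78 (right). In the line shown RPL37A, RPS16, RPL32 and RPS25 lie on the same side of 0 as most of their neighbours, while RPSA (labelled knockout) and RPL9 (BICR78) lie on the opposite side.

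SKN3 and BICR78, both head and neck cancer lines, were set against untreated Cal27 with 1 library each. Single members differed by much more than the family's median. In SKN3 the median log2 difference of the 82 genes was −0.15 beside −0.05 over all genes, and −0.0229 with library size alone. By the fold of 0.5, 19 genes were lower and 8 higher, against 32.2% and 30% of all genes. RPL32, a large-subunit protein, had 2075 CPM (2054 to 2096) in SKN3 against 401 CPM (392 to 409) in Cal27, a log2 difference of 2.37. RPS16, a small-subunit protein at the decoding site, had 2210.1 CPM (2189 to 2232) in SKN3 against 602 CPM (592 to 613) in Cal27, or 1.88. RPS25, which internal entry sites of viral mRNAs need, differed by 0.96. At the other end RPL9 had 25.2 CPM (22.9 to 27.6) in SKN3 against 91.8 CPM (87.7 to 96.0) in Cal27 (−1.86), followed by RPS15 (−1.28) and RPL24 (−1.25).

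The genes around the high ones were high as well. Of 16 genes within 500 kb of RPS16 (chr19:39433137-39435949) 15 were at least 0.5 higher on the log2 scale in SKN3 than in Cal27, with a median of 1.35. Around RPL32 (chr3:12834485-12841582) this held for 5 of 6, with a median of 2.91. Around RPL15 (chr3:23916545-23924631), which differed by 0.94 and was picked after its values were seen, it held for 4 of 4, with a median of 2.67. Copy number was not analysed here.

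In BICR78 the median log2 difference was 0.02 (0.0749 with library size alone), beside −0.05 over all genes. By the fold of 0.5, 8 genes were lower and 8 higher, against 23.8% and 23.9% of all genes. NSD1 was at 0.464 CPM in BICR78, and its part in these differences was not tested. RPL9 (chr4:39454124-39458922) had 454 CPM (444 to 464) in BICR78 against 91.8 CPM (87.7 to 96.0) in Cal27, a log2 difference of 2.30. Its neighbours were lower in BICR78, with 7 of 8 at least 0.5 below Cal27 and a median of −1.15. In SKN3, where RPL9 was at −1.86, they were lower too, with 5 of 8 at least 0.5 below Cal27 and a median of −0.69. RPL9 was highest in BICR78 and lowest in SKN3 among the untreated lines. Its near-identical processed pseudogenes can take up reads here too, so its level in each line is uncertain. Pseudogene rows of the whole family held counts equal to 1.19% of the family's in BICR78, 1.69% in SKN3 and 2.02% in untreated Cal27. RPS25 (1.14) and RPL17 (0.87), a tunnel protein, were also higher, and 15 of 19 neighbours of RPS25 (chr11:119015717-119018343) were at least 0.5 higher, with a median of 1.06. The lowest were RPS3 (−0.72), an entry-site protein with a repair function, RPL30 (−0.69) and RPL24 (−0.67).

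**Figure D4:**
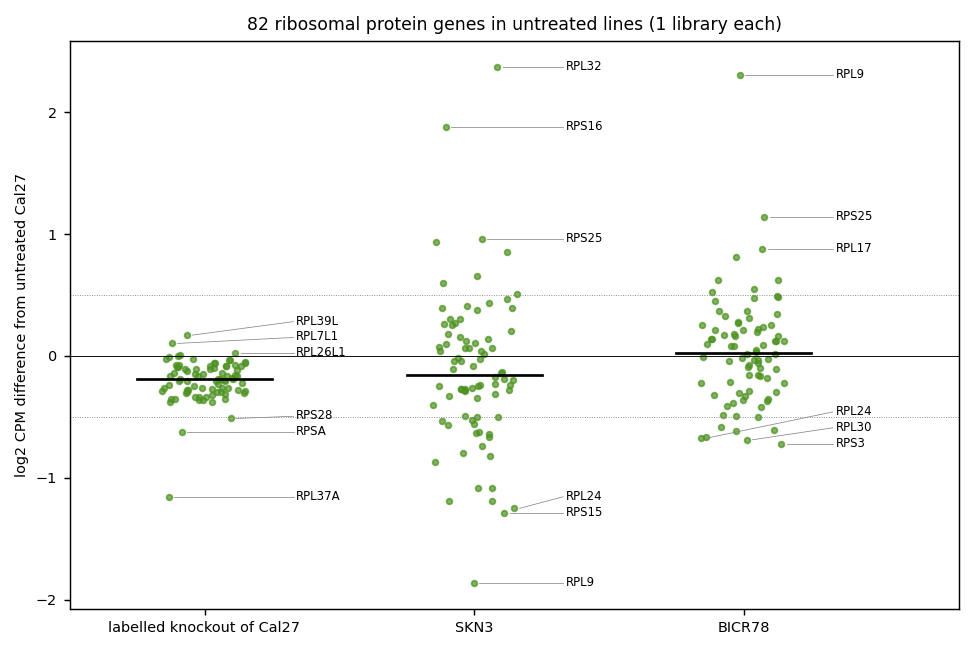
Log2 CPM difference from untreated Cal27 (y axis) of the 82 ribosomal protein genes in the untreated labelled knockout, SKN3 and BICR78 (x axis, 1 library each, points spread sideways). Thick bars are medians, at −0.19, −0.15 and 0.02, dotted lines mark 0.5 and −0.5, and the 3 highest and 3 lowest genes are named.

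Levels differed between the DMSO set and the untreated set in the same line, so levels were compared within a set, apart from the ratios given here. Only the interaction used both sets in a joint fit, to compare the difference within each. Cal27 with DMSO had 6.08 and 6.69 CPM of RPS27, a zinc-finger protein of the small subunit, against 423 CPM in untreated Cal27, a ratio of 0.0151. RPS10 had 47.6 and 38.8 CPM with DMSO against 692 CPM untreated (0.0624), and RPL26 had 51.3 and 52.6 CPM with DMSO against 677 CPM untreated (0.0767). At the other end RPS9 had 461 and 445 CPM with DMSO against 101 CPM untreated, a ratio of 4.50. The next were RPL22L1 (1.92), RPS29 (1.88), RPL34 (1.79) and RPS27A (1.69), and RPS2 (0.878) followed the low ones. Of 4690 genes with at least 1000 counts in untreated Cal27, 38 (0.81%) were below an eighth of that level with DMSO, and 3 of 78 such ribosomal protein genes were (3.85%). The read-through gene RPS10-NUDT3, which overlaps RPS10, had 19.0 and 21.6 CPM with DMSO against 13.9 CPM untreated. How reads were counted in each set is not stated in the labels, and its part in these ratios was not tested.

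**Figure D5:**
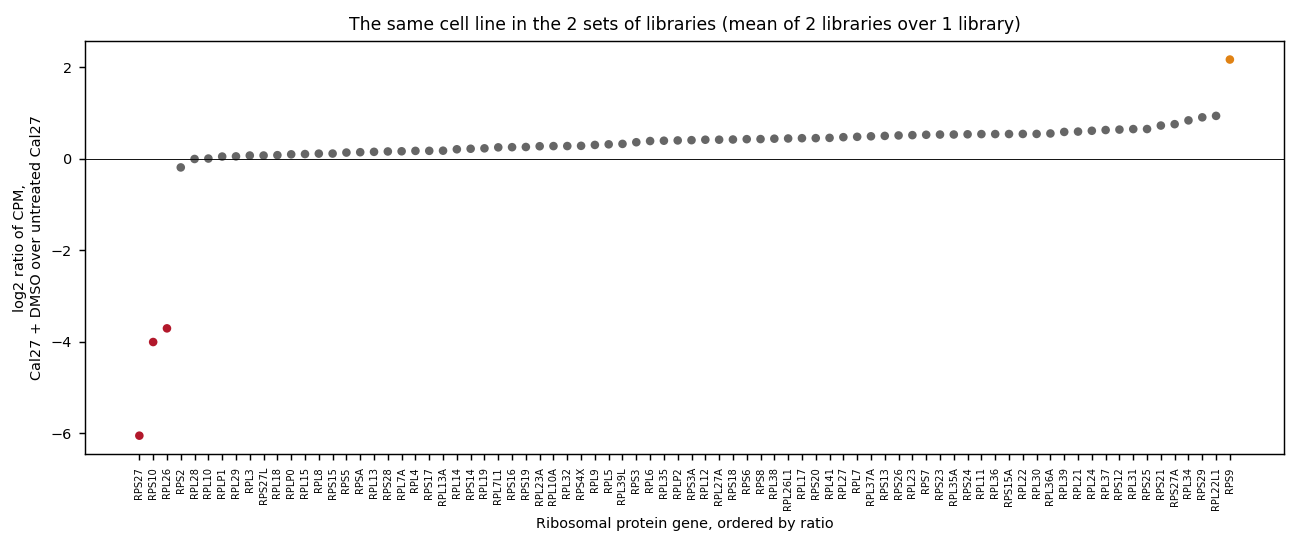
Log2 ratio of mean CPM in Cal27 with DMSO (2 libraries) over CPM in untreated Cal27 (1 library) on the y axis, for 80 of the 82 ribosomal protein genes ordered by ratio on the x axis. RPS27, RPS10 and RPL26 (red) lie far below the rest and RPS9 (orange) above it.

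Within the DMSO and EPZ-6438 set these low genes gave little information. RPS27 had 5.48 and 6.55 CPM with EPZ-6438 and 4.77 and 6.55 CPM with DMSO in the labelled knockout, against 6.05 and 6.67 CPM in Cal27, so its groups overlapped. RPS10 had 38.4 and 33.6 CPM with EPZ-6438 against 46.1 and 44.0 CPM with DMSO in the labelled knockout (−0.33 ± 0.09; edgeR adjusted p = 0.00527). That call was lost on leaving out the second EPZ-6438 library. Rows of ribosomal protein pseudogenes, 1130 in the table, held counts equal to between 1.19% and 2.12% of those of the ribosomal protein genes.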

How the data were processed

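The authors deposited a table of raw read counts per gene for the 10 RNA libraries, used as deposited; each row names a gene. TRIzol extraction and depletion of ribosomal RNA are per the labels' protocols. The submitters' processing notes name hg38 as the build and, among the tools, featureCounts 1.6.1, HISAT2 2.1.0, Picard 2.23.1 and CASAVA 1.7. The sources used here do not give their roles, the annotation or the strand setting, so reads of overlapping, antisense or near-identical genes cannot be told apart. The CUT&Tag samples were not analysed here.

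Groups came from sample titles. The 6 DMSO and EPZ-6438 libraries entered 1 fit by edgeR 4.0.16 under R 4.3.3, using filterByExpr at its defaults (13241 genes), TMM scaling, group as the term, 3 residual degrees of freedom and the quasi-likelihood F test. Calls needed a Benjamini-Hochberg adjusted p below 0.05, and errors of log2 changes are standard errors. The test was tried on simulated counts first. The interaction was fitted over 8 libraries (13999 genes). Untreated libraries were compared as log2 CPM with a prior count of 2 and TMM over all 10 libraries, among genes with at least 100 counts in 1 of the 2 libraries. Intervals are exact 95% Poisson intervals.

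Named members were the 5 most changed called genes each way per replicated contrast (at least 5 CPM), the 3 largest differences each way per untreated line, the 5 highest and lowest ratios between sets, and 16 fixed genes. The members, lists and rules were chosen with earlier results of these data known. Names, positions and start sequences came from RefSeq tables of GRCh38.p14, which matched all 86 members. Protein sequences were not used here, and a few genes that the rule names are not reported here. Whether replicate numbers pair the samples is not stated in the labels. Deviations over all tested genes had correlations between −0.022 and 0.0127, which cannot exclude pairing, since counting error can hide it. Alternatives were DESeq2 1.42.0, other scalings, count filters, a block by replicate number, glmTreat against a log2 fold of 0.2, fits of 2 groups, a robust spread, leaving out each library, and, added after seeing the data, leaving out RPS27, RPS10 and RPL26.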

Additional observations from a re-analysis of the deposited data

Results flagged for a closer look

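For 12 of the named ribosomal protein genes the difference between the labelled knockout and Cal27 in untreated cells and that with DMSO passed edgeR's quasi-likelihood test of the interaction with Benjamini-Hochberg adjustment. The untreated pair has 1 library per genotype, so its own spread was not measured and the test takes that of the DMSO and EPZ-6438 libraries. The values are the log2 difference between labelled knockout and Cal27 in untreated cells minus that with DMSO. Of all tested members 34.1% passed, beside 29.8% of all tested genes.

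RPL37A stood apart at −0.92 (SE 0.05, adjusted p = 8.21e-10), with a log2 difference of −1.16 in untreated cells and −0.25 with DMSO. Negative values were also found for RPS10 (−0.37), RPS28 (−0.31), RPL3 (−0.23), RPS3 (−0.21) and RPLP1 (−0.19). Positive ones, where the labelled knockout was less far below Cal27 in untreated cells, were found for RPL37 (0.27), RPS27A (0.20), RPSA (0.17), RPS25 (0.16), RPL24 (0.13) and RPL11 (0.11). RPS10 is among the genes counted at less than an eighth of their untreated level in Cal27 with DMSO. The part of clone, passage, counting and treatment in these differences was not tested.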

How the results depend on the processing

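In the 3 replicated contrasts the median change of the family stayed below 0 under every alternative for which it was computed, while the number of calls moved. It was not computed for the robust spread, for glmTreat or for leaving out RPS27, RPS10 and RPL26. Against a log2 fold of 0.2 (glmTreat) the genes that fell were 18 for the labelled knockout and 11 for the inhibitor (22% and 13.4%, beside 10% of all tested genes each), and 0 rose in either, beside 6.4% and 17.2%. For the treated labelled knockout against Cal27 58 fell (70.7%, beside 13.9% of all tested genes) and 0 rose, beside 17.2%. With library size alone 2 rose in the labelled knockout, and with DESeq2, DESeq2-type size factors or the replicate block 1 rose with the inhibitor. With the replicate block, 67 fell in the labelled knockout and 56 with the inhibitor. Leaving out 1 library gave 59 to 69, 49 to 59 and 73 to 76 that fell in the 3 contrasts, and 0 to 1, 0 to 3 and 0 that rose. Median log2 changes became −0.13 and −0.27 with library size alone (labelled knockout, and treated labelled knockout against Cal27), −0.17 without a filter (labelled knockout), and −0.19, −0.12 and −0.31 with at least 50 counts in 2 libraries. Leaving out 1 library moved them between −0.19 and −0.17, −0.14 and −0.13, and −0.34 and −0.31. Called interactions above 0, 12 as reported beside 16 below 0, numbered 22 with library size alone and 5 to 12 on leaving out 1 library. Untreated medians were −0.156, −0.143 and 0.0113 with TMM over 4 libraries and −0.0902, −0.0229 and 0.0749 with library size alone, for the labelled knockout, SKN3 and BICR78. Library size alone shifted the median of all genes by up to 0.13 there.

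Of 1920 single-gene alternatives 1786 kept direction and call, 106 lost the call, 9 gained it and 19 changed sign, all in genes not called. The sign changed for RPS9 with library size alone (0.00898, labelled knockout) and for RPL39L with at least 50 counts (0.00966, inhibitor). The others changed sign on leaving out 1 library. In the labelled knockout the range was −0.0739 to 0.223 for RPS10, −0.411 to 0.0442 for RPS27, −0.238 to 0.00669 for RPS27L and −0.0135 to 0.098 for RPL26. With the inhibitor it was −0.112 to 0.0662 for RPL39L, −0.116 to 0.34 for RPS27, −0.0207 to 0.247 for RPS27L, −0.00283 to 0.0261 for RPL26L1, −0.0709 to 0.0206 for RPLP2, −0.127 to 0.043 for RPS29 and −0.0264 to 0.0958 for RPL37. In the treated labelled knockout against Cal27 it was −0.216 to 0.0466 for RPS27 and −0.129 to 0.123 for RPS27L. The cause was not tested. Counting error is widest for RPS27, at under 7 CPM in the DMSO and EPZ-6438 libraries.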
